A study of Mus musculus with 58 samples.

Results

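The clustered protocadherins are cell adhesion proteins of the cadherin superfamily, made from 3 neighbouring gene clusters named alpha, beta and gamma. They were taken as every row of the deposited table whose gene ID has a protein-coding mouse symbol of the Pcdha, Pcdhac, Pcdhb, Pcdhga, Pcdhgb or Pcdhgc series followed by a number. This gave 56 of 18088 genes, with 14 in the alpha, 21 in the beta and 21 in the gamma cluster. Of the 58 symbols of the family in the GENCODE M21 annotation, Pcdhb1 was not analysed here. Pcdhgb8 is annotated as a polymorphic pseudogene and was left out, with a mean of 39.6 normalised reads.

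As background, each alpha and gamma gene has its own promoter and a large variable exon for the extracellular and membrane-spanning part, which is spliced to constant exons shared by its whole cluster. Each beta gene is a single exon with no constant part. A neuron is known to switch on a few of these promoters, largely at random, through CTCF and cohesin loops to distant enhancers, so that cells carry different sets of surface proteins that bind to copies of themselves on other cells. The 5 C types at the ends of the alpha and gamma clusters (Pcdhac1, Pcdhac2, Pcdhgc3, Pcdhgc4 and Pcdhgc5) are known to be expressed with less of this random choice. In cortex the family is known for dendrite self-avoidance, arbor growth and the survival of interneurons.

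RNA-seq was made from prefrontal cortex of C57BL/6J mice at postnatal day 25. The mice were heterozygous for a Tbl1xr1 knock-in allele (HT) or wild type (WT), the labels do not name the mutation, and pups got vehicle, fluoxetine (a serotonin reuptake inhibitor) or lithium (a mood stabiliser) in maternal milk from day 3 to day 24. Each of the 12 groups of genotype, treatment and sex held 5 libraries, except WT lithium females and WT lithium males with 4 each, which gave 58 libraries. Every group shared the strain, the age and the route of dosing. Libraries were not stated to be separate animals, and p-values measure the spread between them, which may be technical. Neither dam nor litter was given, so a drug and the litters that received it cannot be told apart.

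Whole reads recovered from the table came to 22.9 to 35.01 M (megareads) per library, with a median of 26.725 M. Values below are these reads divided by the size factor of the library, called normalised reads. Tbl1xr1, the gene that carries the knock-in and encodes part of a nuclear corepressor complex, ran from 2275.5 to 2746.8 in HT and from 1817.3 to 2278.6 in WT. Xist (13378.1 to 32283.2 in females, 0.9 to 53.7 in males) and Ddx3y split the 58 libraries by their labelled sex. The 6 markers of cortical excitatory neurons summed to 132815.3 to 190608.2, so the labelled tissue had its defining transcripts in every library. Summed markers of the olfactory bulb (Cdhr1, Doc2g, Eomes, Tbx21 and Th), a tissue in front of the cortex, ran from 281.1 to 18098.7. These 5 markers were all lower in HT, with a median log2 change of -1.25 over the 3 treatments, though limma called 0 of them. Their sum had a median of 869 in HT and 3310 in WT. Choroid plexus markers were near 280.2 in most libraries but reached 25790 in HT lithium male 1 and 33409 in WT vehicle female 4. Summed markers of the striatum had a median of 5357.9 and reached 18609.2 in HT lithium female 2.

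On the plus strand of mouse chromosome 18 (GRCm38), the alpha genes span chr18:36930184-37187661, the beta genes chr18:37294812-37524479 and the gamma genes chr18:37661793-37841873. Alpha and gamma transcripts have 4 exons here, of which the last 3 are shared by the cluster. The constant exons make up 48.6% to 54.9% of each alpha transcript and 41.7% to 45.5% of each gamma transcript. Reads from those exons cannot be told apart by sequence. The processing notes name Salmon 0.11.2, but the sources used here give no detail of how such reads were shared out among genes. Alpha and gamma values are thus uncertain in that part. No beta gene shares exons, apart from Pcdhb21 and Pcdhb22, whose annotated ends overlap by 9.7% and 6.9% of their lengths. The beta values are thus the ones least touched by shared exons.

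The 4 highest genes were C types. Per kilobase of transcript, Pcdhgc5, a C type known at GABA-containing synapses, had a mean of 1257 normalised reads over the 58 libraries. Pcdhgc4, known for its need in interneuron survival, had 732.6 per kilobase, and Pcdhgc3, known for promoting dendrite arbors, had 726. Pcdhac2, known for spacing the axons of serotonin neurons, stood at 476.6 per kilobase and was the highest alpha gene. The remaining C type, Pcdhac1, had 52.4 and lay among the ordinary alpha genes.

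**Figure D1:**
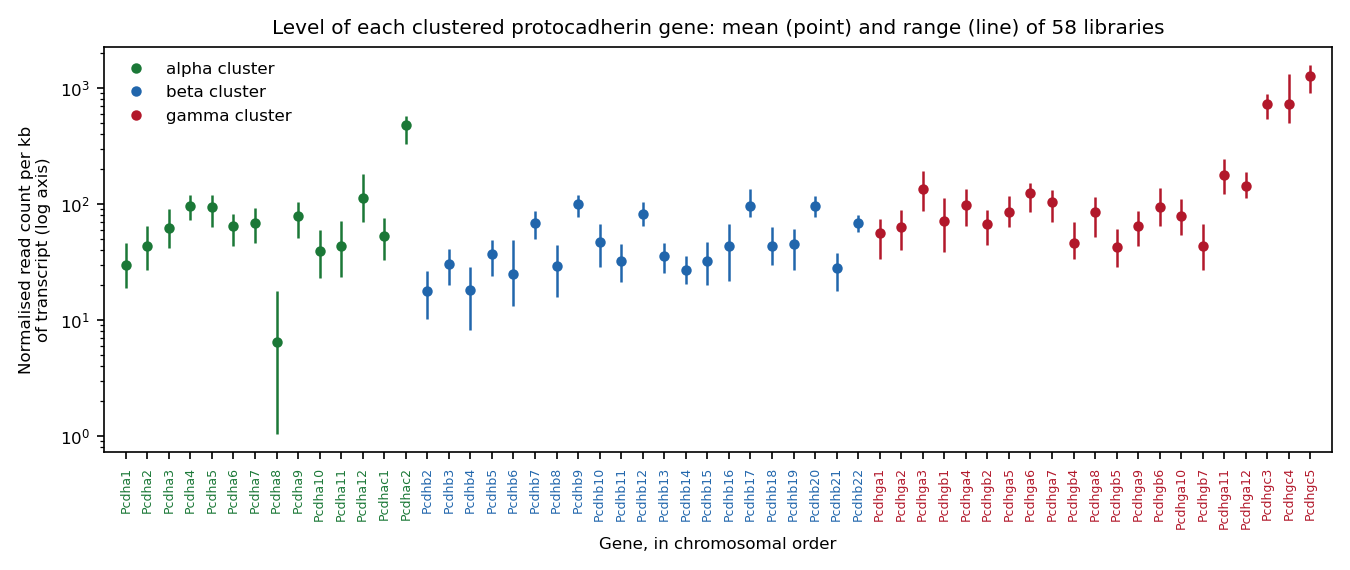
Normalised reads per kilobase of transcript (log axis) for the 56 genes in chromosomal order, with the mean of 58 libraries as a point and the lowest and highest library as the ends of a line. Pcdhac2, Pcdhgc3, Pcdhgc4 and Pcdhgc5 stand above the rest at means of 476.6 to 1257, and Pcdha8 lies lowest at 6.5.

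Among the other alpha genes, Pcdha12 with 113.4 and Pcdha4 with 95.7 normalised reads per kilobase were highest and Pcdha8 with 6.5 was lowest. In the beta cluster Pcdhb9 (99), Pcdhb20 (96.5) and Pcdhb17 (96) led at nearly the same level per kilobase, and Pcdhb2 was lowest with 17.6. In the gamma cluster the lowest was Pcdhgb5 with 42.8 per kilobase, next to Pcdhgb7 with 43.1. The order of genes was much the same in each library. The rank correlation of a library's levels with the mean order was never below 0.855 in the alpha, 0.904 in the beta and 0.938 in the gamma cluster. Position in the cluster, leaving out the C types, had a rank correlation with the level per kilobase of 0.154 over 12 alpha, 0.449 over 21 beta and 0.166 over 18 gamma genes, a description over neighbouring genes.

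As whole clusters, the genes summed to 5583.9 to 8076.4 normalised reads per library in alpha, 3449.6 to 5295.5 in beta and 18887.8 to 22028.7 in gamma. All group means of the beta sum lay between 3906 ± 237 (SD, n = 5) in HT fluoxetine males and 4579 ± 517 (SD, n = 4) in WT lithium females. The 5 lowest alpha sums came from WT libraries, namely vehicle female 4 (5583.9), fluoxetine female 1 (5599.5) and fluoxetine males 5 (5672.4), 2 (5726.5) and 3 (6102.8). The same 5 libraries had the 5 lowest values of Pcdhac2, with 2137.5, 2280.1, 1919.8, 2239.7 and 2201.6 in the same order.

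The spread of single genes between libraries of 1 group was larger than the median over other genes, which were not matched to them by level. The median within-group coefficient of variation was 16.1% in alpha, 15.5% in beta and 14.9% in gamma, against 9.9% for the 13476 genes with means anywhere in the range of the family (34.7 to 5957.7). Read counting alone would give medians of 5.65%, 8.6% and 5.1%, if the recovered reads are taken as plain counts. Pcdha8 was the most variable at 44.3%, where counting alone would give 17.5%. Pcdhgb1, Pcdha1, Pcdhgb7 and Pcdha11 lay at 20.6% to 22.3%. Pcdhgc4 was at 20.4%, where counting alone would give 1.7%. Pcdhac2 was at 10.7%, Pcdhgc3 at 9.2% and Pcdhgc5 at 9.7%. The values of Pcdhgc4 ran from 2482.9 in WT vehicle male 2 to 6665 in HT fluoxetine female 4. Pcdhb22 was the steadiest at 6.5%.

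Differences were tested with limma on log2(value + 1) over 16606 genes, and a gene is said to have risen or fallen only at a Benjamini-Hochberg adjusted p under 0.05 over all those genes. All 56 members passed the filter for low values (a mean of at least 10). Only 2 members passed in any of the comparisons fitted to all libraries, Pcdhb9 for genotype and Pcdhga12 for lithium. Genotype and drug contrasts that share vehicle or WT libraries are not independent of each other. Many members also vary together across libraries, so counts of members set beside shares of all genes are not counts of independent genes.

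The first question was whether the Tbl1xr1 allele shifts the family. Averaged over the 3 treatments, Pcdhb9 fell in HT, and it was the 1 member called of 56, beside 1.07% of all genes called in either direction. Pcdhb9 (ENSMUSG00000051242, chr18:37400855-37403909, GRCm38) is a single exon of 3055 bases that shares none with a neighbour. Its normalised reads ran from 235.8 to 348.3 with a median of 286 in the 30 HT libraries and from 278 to 362.1 with a median of 315.8 in the 28 WT libraries. The 2 ranges overlap over most of their length, with HT lower in the middle. The log2 change was -0.13 ± 0.032 (SE), or 0.914-fold, with a limma adjusted p of 0.0245.

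By treatment, none of the 3 genotype comparisons of Pcdhb9 passed singly, and the lower HT values lay under vehicle and lithium. Under vehicle, 10 HT libraries ran from 235.8 to 312.9 with a median of 280.8, and 10 WT libraries from 285.6 to 339.7 with a median of 320.2. All 10 HT libraries lay below the WT mean of their sex, and the change was -0.19 ± 0.053 (limma adjusted p = 0.354). Under lithium, HT ran from 262.1 to 312.4 with a median of 283.1 and WT from 283.8 to 362.1 with a median of 329.7, and again all 10 HT libraries lay below the WT mean of their sex (-0.19 ± 0.057, limma adjusted p = 0.557). Under fluoxetine, the medians were 298.7 in HT and 304.4 in WT, with a log2 change of -0.001 ± 0.053. The test of that change in the effect, the fluoxetine by genotype interaction, gave 0.19 ± 0.076 with an unadjusted limma p of 0.0141 and an adjusted p of 0.964, and so did not pass.

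**Figure D2:**
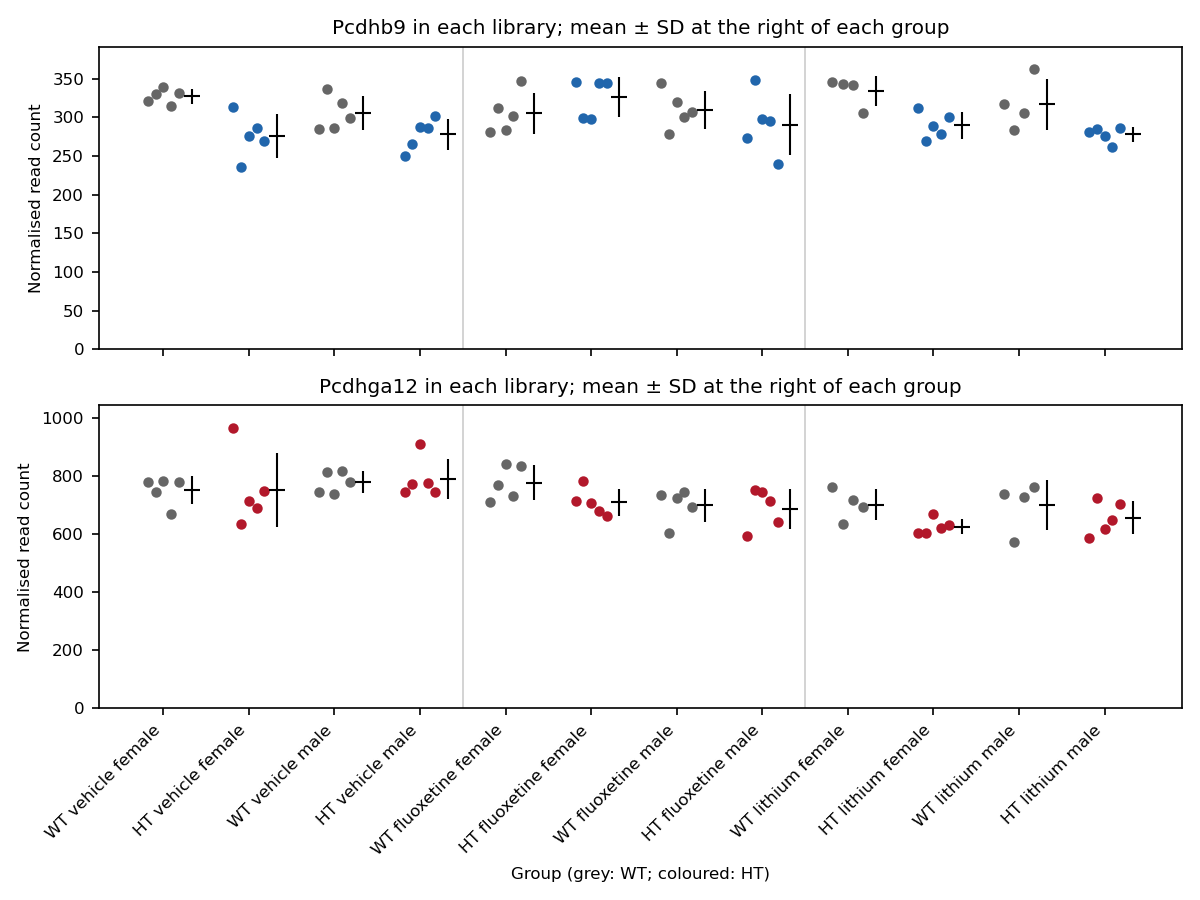
Normalised reads of Pcdhb9 and Pcdhga12 in every library of the 12 groups (grey WT, coloured HT), with the group mean ± SD beside the points; vertical lines part vehicle, fluoxetine and lithium. HT points of Pcdhb9 lie at 235.8 to 312.9 under vehicle against 285.6 to 339.7 in WT, and HT points of Pcdhga12 under lithium lie at 585.2 to 724.6 against 634.2 to 964.5 under vehicle.

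The beta cluster leaned the same way as Pcdhb9 without other genes passing. In the mean of the 3 treatments, 0 of 21 beta genes had a log2 change above 0 and the median was -0.098, while the median over all 16606 genes was 0 with 50% above 0. At an unadjusted limma p under 0.05 there were 10 of 21 beta genes, all lower in HT, beside 15.2% of all genes in either direction and 7.87% lower. Pcdhb4 had the lowest value (-0.21 ± 0.082, adjusted p = 0.21), from means of 63.3 ± 14.3 in HT and 72.8 ± 14 in WT. Pcdhb7 went from 251.9 ± 28 in WT to 227.3 ± 30.9 in HT (-0.15 ± 0.05, limma adjusted p = 0.12) and Pcdhb10 from 140.8 ± 17.5 to 126.4 ± 24.4 (-0.17 ± 0.058, limma adjusted p = 0.125). Pcdhb5 stood at -0.002. HT and WT values of these genes overlapped widely. Beta genes also varied together across libraries within groups, with a median pairwise r of 0.384. The 21 genes are thus not independent evidence, and a shift in a few libraries can move most of them.

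The treatments share no libraries with each other. Under vehicle, 2 of 21 beta genes were above 0, with a median of -0.14. Under fluoxetine 5 were above 0 with a median of -0.092, and under lithium 0 with a median of -0.11. As beta genes vary together, the genes in each count are not independent. The alpha cluster had 9 of 14 genes above 0 over the 3 treatments (median 0.038) and the gamma cluster 3 of 21 (median -0.063). The alpha genes nearest to passing were Pcdha3 (0.14 ± 0.06, limma adjusted p = 0.272) and Pcdhac2 (0.085 ± 0.041, limma adjusted p = 0.31). Pcdhgc4 stood at 0.12 ± 0.068 (limma adjusted p = 0.377). Several marker lists leaned higher or lower in HT, though limma called none of their genes except 1 lower in the leptomeninges list. Lower in HT, as the beta genes were, were all 5 olfactory bulb markers and all 6 markers of immature neurons and proliferation, whose sum had a median of 3943 in HT and 5012 in WT. Higher in HT were all 6 cortical excitatory neuron, all 6 oligodendrocyte and all 6 microglial markers and 6 of 7 astrocyte markers. For microglia and astrocytes, these gave medians of the summed values of 7541 against 7005 and 137719 against 128905. With the mean of the olfactory bulb markers as a covariate, the beta median was -0.05, with 3 of 21 above 0. Pcdhb9 then no longer passed (-0.1, limma adjusted p = 0.148). With astrocyte markers as the covariate the beta median was -0.097, with 1 of 21 above 0. Without the 19 libraries whose olfactory bulb sum was over 5000, the beta median was -0.075 and Pcdhb9 stood at -0.14 (limma adjusted p = 0.075). In single sexes Pcdhb9 stood at -0.12 in females (limma adjusted p = 0.441) and -0.14 in males (0.368). The part of microglial and immature neuron markers in the beta difference was not tested, nor that of olfactory bulb RNA beyond these values. In bulk tissue, fewer cells of a type and less RNA per cell cannot be told apart.

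Genotype called 0 members under vehicle, fluoxetine or lithium taken singly, where 0.0181%, 0.994% and 0.0120% of all genes were called by limma. At an unadjusted p under 0.05 there were 4, 6 and 5 of 56 members, beside 5.76%, 18.3% and 5.34% of all genes, and edgeR and DESeq2 also called 0. Under vehicle the smallest p values in the other clusters belonged to Pcdha9 (-0.22 ± 0.1, adjusted p = 0.854) and Pcdhga5 (-0.22 ± 0.087, adjusted p = 0.746). Under fluoxetine, 12 of 14 alpha genes had higher means in HT, with a median of 0.099. The alpha gene with the smallest p there was Pcdha5, with 513.7 ± 46.4 in HT and 437.5 ± 79.4 in WT (0.25 ± 0.084, limma adjusted p = 0.102). For Pcdhac2 the means were 2921.5 ± 229.2 and 2583.5 ± 395.8 (0.19 ± 0.069, limma adjusted p = 0.126). Of the 10 WT fluoxetine libraries, 4 are among the 5 with the lowest Pcdhac2 named above. Pcdhga8 went the other way (-0.22 ± 0.077, adjusted p = 0.107), as did Pcdhb22 (-0.088 ± 0.043, adjusted p = 0.265). Under lithium the smallest p outside the beta cluster were those of Pcdha3 (0.22 ± 0.11, adjusted p = 0.915) and Pcdhga2 (-0.23 ± 0.11, adjusted p = 0.915).

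The second question was whether exposure to either drug in early life shifts the family. Pcdhga12, the last of the gamma A genes before the C types, was lower with lithium. It is ENSMUSG00000102428 at chr18:37765580-37841873 (GRCm38), with a transcript of 5080 bases. In HT, values under vehicle ran from 634.2 to 964.5 with a median of 744.1 and under lithium from 585.2 to 724.6 with a median of 624.9. All 10 lithium libraries lay below the vehicle mean of their sex, though the ranges overlap. The log2 change was -0.26 ± 0.058, or 0.837-fold, with a limma adjusted p of 0.0247, and Pcdhga12 was the 1 member called of 56 beside 0.385% of all genes. At an unadjusted p under 0.05 there were 2 of 56 members, beside 12.2% of all genes.

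In WT, Pcdhga12 ran from 669.5 to 815.8 with a median of 778 under vehicle and from 573.1 to 761.8 with a median of 720.2 under lithium. Here 7 of 8 lithium libraries lay below the vehicle mean of their sex, and the change of -0.13 ± 0.061 did not pass (unadjusted p = 0.0372, limma adjusted p = 0.481). The lithium by genotype interaction was -0.13 ± 0.084 with an unadjusted limma p of 0.137, so a difference between the genotypes was not shown. Averaged over both genotypes, Pcdhga12 fell by 0.19 ± 0.042 on the log2 scale (limma adjusted p = 0.00663), the 1 member called beside 2.67% of all genes, and 7 of 56 had an unadjusted p under 0.05 beside 16.9%. Under fluoxetine its median was 708.4 in HT and 731 in WT, between vehicle and lithium in each genotype (-0.095 ± 0.041 over both, limma adjusted p = 0.204). Both comparisons use the same vehicle libraries.

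The call for Pcdhga12 in HT was close to the threshold. It was lost when any of 4 libraries was left out, HT lithium male 1 (limma adjusted p = 0.0535), HT lithium male 3 (0.0574), HT vehicle female 1 (0.0621) or HT vehicle male 3 (0.0674). HT vehicle female 1 with 964.5 and HT vehicle male 3 with 908.2 were the highest of all 58 libraries, and the change without them in turn was -0.21 and -0.23. HT lithium male 1 is a library with high choroid plexus markers, and with those markers as a covariate the change was -0.23 (limma adjusted p = 0.0622). Averaged over both genotypes the call held with each of 38 libraries left out, with adjusted p values up to 0.0149. Without the 19 libraries rich in olfactory bulb markers, Pcdhga12 stood at -0.24 in HT (limma adjusted p = 0.134) and -0.21 over both genotypes (0.0519), so neither call held. With a fit of only the vehicle and lithium groups of HT, the change in HT was the same (-0.26) and did not pass (limma adjusted p = 0.115). In single sexes, with fewer libraries, the change in HT was -0.25 in females (limma adjusted p = 0.654) and -0.27 in males (0.3). As Pcdhga12 shares 41.7% of its transcript with the other gamma genes, its value also depends on how shared reads were assigned.

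No other gamma gene passed under lithium. Over both genotypes, 5 of 21 gamma genes were above 0 under lithium, with a median of -0.039. Pcdhgb2 had the lowest value (-0.21 ± 0.077, limma adjusted p = 0.119), with means of 348.2 ± 46.1 in WT vehicle and 290.8 ± 41 in WT lithium and all 8 WT lithium libraries below the vehicle mean of their sex. Its neighbours in value were Pcdhgb5 (-0.15 ± 0.077) and Pcdhga11 (-0.14 ± 0.078), while Pcdhga6 stood at 0.12 ± 0.055. The C types Pcdhgc3, Pcdhgc4 and Pcdhgc5 stood at -0.044, -0.012 and -0.039.

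Alpha and beta genes under lithium were spread around 0, with medians of 0.013 and 0.017 over both genotypes. Pcdha10 came nearest to passing, with 191.9 ± 31.6 in WT vehicle, 250 ± 49 in WT lithium, 187.3 ± 31.9 in HT vehicle and 211.3 ± 37 in HT lithium (0.27 ± 0.09 over both, limma adjusted p = 0.0843). Of the beta genes, Pcdhb17 went from 437 ± 44.3 to 501 ± 69.3 in WT, with 7 of 8 libraries above the vehicle mean of their sex (0.19 ± 0.071, limma adjusted p = 0.327). In HT the smallest p of these clusters belonged to Pcdha9 (0.2 ± 0.1, adjusted p = 0.447) and Pcdhb10 (-0.2 ± 0.099, adjusted p = 0.414). In WT, lithium called 0 members beside 0.0301% of all genes, with 4 of 56 members and 9.38% of genes at an unadjusted limma p under 0.05.

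**Figure D3:**
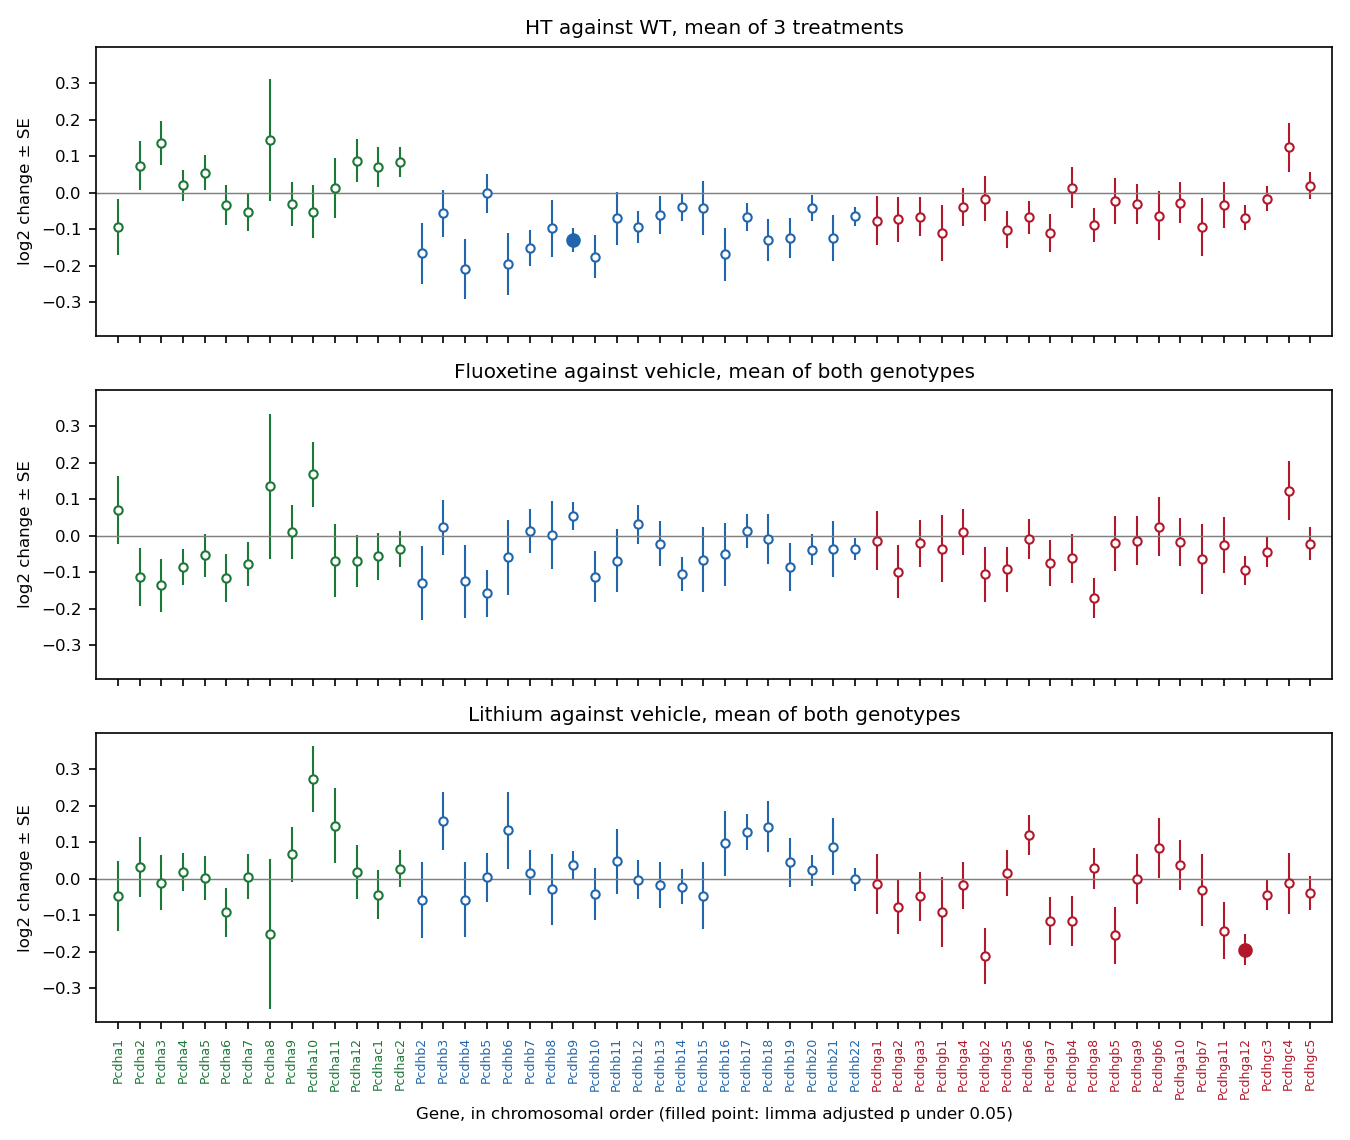
Log2 change ± SE of each of the 56 genes for genotype (mean of 3 treatments), fluoxetine and lithium (mean of both genotypes), in chromosomal order; filled points passed limma at an adjusted p under 0.05. In the genotype panel all 21 beta points lie at or below 0, with Pcdhb9 filled at -0.13, and in the lithium panel Pcdhga12 is filled at -0.19.

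For fluoxetine, limma called 0 members in either genotype or over both. The same held for edgeR, while DESeq2 called 0 in either genotype and 1, Pcdhga8, over both. The shares of all genes called by limma were 0% in HT, 0.367% in WT and 2.55% over both. In WT and over both, edgeR called 57 and 407 of all genes, and DESeq2 229 and 612. In HT the 0 calls over all genes stood beside 1526 genes at an unadjusted p under 0.05, with 0 called by edgeR and 18 by DESeq2. Among the members, 4 in HT, 6 in WT and 4 over both had an unadjusted p under 0.05, beside 9.19%, 13.4% and 17.4% of all genes. Over both genotypes, 13 of 56 members had a value above 0, beside 50.9% of all genes, with medians of -0.062 in alpha, -0.038 in beta and -0.025 in gamma. Across genes, this change went with GC content (r = 0.172). Genes within the GC range of the alpha, beta and gamma clusters had medians of -0.006, -0.017 and 0.017.

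Pcdhga8, a gamma A gene, came nearest to passing under fluoxetine. Its means were 405.4 ± 53.5 in HT vehicle and 346.9 ± 63.7 in HT fluoxetine, with 9 of 10 libraries below the vehicle mean of their sex (-0.24 ± 0.077, limma adjusted p = 0.299). In WT the means were 432.9 ± 62.9 and 401.8 ± 48.2, and over both genotypes the change was -0.17 ± 0.055 (limma adjusted p = 0.0781). DESeq2 gave -0.17 for Pcdhga8 over both genotypes with an adjusted p of 0.0469. In HT, Pcdhb9 had a median of 280.8 under vehicle and 298.7 under fluoxetine, with 8 of 10 libraries above the vehicle mean of their sex (0.15 ± 0.053, adjusted p = 0.351). The alpha gene with the smallest p in HT was Pcdha10 (0.24 ± 0.12, adjusted p = 0.551). In WT, the smallest p values were those of Pcdha5 (-0.19 ± 0.084, adjusted p = 0.28), Pcdhb14 (-0.15 ± 0.066, adjusted p = 0.305) and Pcdhga5 (-0.21 ± 0.087, adjusted p = 0.262). For Pcdhb14 all 10 WT fluoxetine libraries lay below the vehicle mean of their sex.

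None of the 5 C types passed in any of these comparisons, and their groups overlapped throughout. Pcdhgc4 ran from 2794 to 6072.7 with a median of 3442.6 in HT vehicle, and had medians of 3806.1 in HT fluoxetine and 3757.3 in HT lithium. In WT its medians were 3380.7, 3779 and 3250.4 in the same order. Pcdhgc3 had medians of 3536.9, 3309.2 and 3255 in HT and 3498.9, 3246.2 and 3358 in WT under vehicle, fluoxetine and lithium. Both genes thus kept their medians within a narrow band beside the spread of single libraries, which for Pcdhgc3 ran from 2507.3 to 4189.3.

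Pcdhgc5 had medians of 6175, 6198.4 and 5701.6 in HT and 6052.3, 6087.7 and 6082.2 in WT under vehicle, fluoxetine and lithium. In HT lithium its range was 4972.5 to 6143.6, within the 4651.9 to 7399.3 of HT vehicle. For Pcdhac2 the medians were 2926.8, 2841 and 2754 in HT and 2784.6, 2704.5 and 2920.8 in WT, and for Pcdhac1 they were 288.6, 308 and 270.5 in HT and 273.9, 263.3 and 284.3 in WT. The lowest values of both alpha C types fell in WT fluoxetine, at 1919.8 and 178.2.

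Neither interaction called a member or any other gene with limma. For fluoxetine, 4 of 56 members had an unadjusted p under 0.05 beside 4.78% of all genes, and for lithium 2 of 56 beside 3.67%. Across all genes edgeR called 0 in both, and DESeq2 called 1 for fluoxetine and 4 for lithium, none of them members. After Pcdhb9, the smallest p for fluoxetine were those of Pcdha5 (0.28 ± 0.12) and Pcdha9 (0.32 ± 0.14), both with adjusted p = 0.964 by limma.

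Females and males differed in no member past the threshold, with 0.114% of all genes called by limma, and edgeR and DESeq2 also called 0 members. At an unadjusted p under 0.05 there were 14 of 56 members, beside 7.56% of all genes. Female means were higher for 16 of 21 beta and 6 of 21 gamma genes. Pcdha8 had a mean of 40.9 ± 14.9 in 29 females and 28.4 ± 15 in 29 males (0.59 ± 0.17, limma adjusted p = 0.314), but it is the most thinly counted member. Pcdhb22 had 438.7 ± 27 in females and 467.7 ± 36.3 in males (-0.091 ± 0.025, limma adjusted p = 0.314), and Pcdhga8 had 384.2 ± 58.4 and 428.2 ± 54.2 (-0.16 ± 0.046, limma adjusted p = 0.385). Olfactory bulb markers leaned higher in females, with a median log2 difference of 0.28, but not in every group. In WT fluoxetine their sum ran from 809.2 to 3829.5 in females and from 2360.5 to 17187.9 in males. Their part in the sex differences of the members was not tested. The 7 effects of genotype and drug were compared between the sexes, and 0 members differed by limma, edgeR or DESeq2. At an unadjusted p under 0.05, the effect of genotype differed between the sexes for 3 of 56 members under vehicle, 6 under fluoxetine and 0 under lithium, beside 4.31%, 14.2% and 2.25% of all genes. For fluoxetine in HT and WT these were 4 and 4 members beside 5.03% and 10.7% of all genes, and for lithium in HT and WT 2 and 1 beside 3.13% and 1.82%.

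Genes that act on or with the family were read from lists. None of 11 CTCF and cohesin genes, which build the loops that pick a promoter, and none of 14 DNA methylation and silencing genes passed in the genotype mean, the fluoxetine mean or the lithium mean. Limma called 1.07%, 2.55% and 2.67% of all genes in these 3 means, which also stand beside the lists that follow. Rad21, a cohesin subunit, stood at -0.066 ± 0.027 under lithium (limma adjusted p = 0.181), and Dnmt3b, the methyltransferase known to act on protocadherin promoters, stood at -0.29 ± 0.11 in HT (limma adjusted p = 0.181). Of 14 binding and signalling partners, 0 passed, and Cyfip1, part of the WAVE complex, was nearest under lithium (-0.076 ± 0.023, limma adjusted p = 0.0584). Of the 6 genes for proteolytic processing, Psen2, a catalytic subunit of gamma-secretase, rose with fluoxetine (0.14 ± 0.033, limma adjusted p = 0.0194), and Aph1a, another subunit, rose with lithium (0.1 ± 0.029, limma adjusted p = 0.0461). Of 10 non-clustered protocadherins, Pcdh10 fell with lithium (-0.12 ± 0.033, limma adjusted p = 0.0311). Pcdh7 did not pass in the genotype mean (0.135 ± 0.04, limma adjusted p = 0.0815). Under fluoxetine alone, where 0.994% of all genes were called, Pcdh7 was higher in HT than WT (0.29 ± 0.068, limma adjusted p = 0.0255).

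Beyond the groups, most beta and gamma genes varied together across libraries, and alpha genes did so less. Each library's log2 value was taken as its deviation from its group mean, and Pearson correlations were computed over the 58 libraries. The median r between 2 beta genes was 0.384, with 99.5% of 210 pairs above 0, and between 2 gamma genes 0.311. Beta and gamma genes went together almost as closely, with a median r of 0.34 over 441 pairs. Correlations of alpha genes were lower, with a median of 0.112 among themselves, 0.092 with beta and 0.056 with gamma genes, beside -0.002 for all pairs of the 16606 genes. These are descriptions of pairs that share libraries and, in alpha and gamma, exons.

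The 5 C types were each compared with every other member (265 relations, chosen after the values were seen). Pcdhac2 and Pcdhgc5 varied together with r = 0.733 and rho = 0.729, and Pcdhac1 with Pcdhgc5 with r = 0.718 and rho = 0.762, though they lie in different clusters and share no exon. The permutation p of 1e-05 for each is the smallest that 100000 permutations within groups can give, and the adjusted p was 0.000241 for r and 0.000294 for rho. Without the 2 libraries farthest from the median, r was 0.71 and 0.695. Pcdhgc3 ran against Pcdhac2, with r = -0.544 and rho = -0.574 (permutation p of 0.0002 and 7e-05, adjusted p of 0.0023 and 0.00124, r = -0.516 without the 2 farthest).

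Pcdhgc4 ran against the beta genes and the gamma A and B genes. Its r was below 0 with all 21 beta genes (median -0.517) and all 18 gamma A and B genes (median -0.508), with adjusted permutation p under 0.05 for 18 and 14 of them. With the 12 alpha genes other than C types its median r was -0.12, 3 were above 0, and 2 passed below 0. The lowest was with Pcdhb19, with r = -0.793 and rho = -0.786 (permutation p of 1e-05 each, adjusted p of 0.000241 and 0.000294), and -0.744 without the 2 farthest libraries. With Pcdhgc5, its neighbour with the same constant exons, r was -0.6 and rho -0.492 (permutation p of 2e-05 and 0.00039, adjusted p of 0.000442 and 0.00397, r = -0.532 without the 2 farthest). HT fluoxetine female 4 and HT vehicle female 2 had the most Pcdhgc4, at 6665 and 6072.7, and HT vehicle female 2 also had the lowest beta sum, at 3449.6. As Pcdhgc4 shares 42.2% of its transcript with the cluster, its value depends in part on how shared reads were assigned, and it shares no exon with the beta genes.

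The same deviations were compared with 13 lists of cell type markers, as the mean log2 deviation of each list (728 relations over 58 libraries, chosen after the values were seen, with Benjamini-Hochberg adjustment over all of them). The labels give no batch, so no value within batches can be had. Of the 728 relations, 227 had an adjusted permutation p under 0.05.

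Beta genes and the gamma A and B genes went with olfactory bulb markers. All 21 beta genes had r above 0 (median 0.458, from 0.296 to 0.676) and 19 passed, and all 18 gamma A and B genes had r above 0 (median 0.441) with 13 passing. Alpha genes had a median of 0.026, and all 16606 genes a median of -0.03 with 20.5% above 0.3. The highest were Pcdhgb6 (r = 0.735, rho = 0.715, permutation p of 1e-05 each, adjusted p of 0.000331 and 0.000485, r = 0.692 without the 2 farthest libraries) and Pcdhga11 (r = 0.693, rho = 0.66, permutation p of 1e-05 each, the same adjusted p values, r = 0.663). Of the genes called for genotype or lithium, Pcdhb9 had r = 0.416 and rho = 0.341 (permutation p of 0.00303 and 0.0187, adjusted p of 0.0155 and 0.0578, r = 0.395), and Pcdhga12 r = 0.283 and rho = 0.268 (permutation p of 0.0465 and 0.0592, adjusted p of 0.108 and 0.133, r = 0.295).

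**Figure D4:**
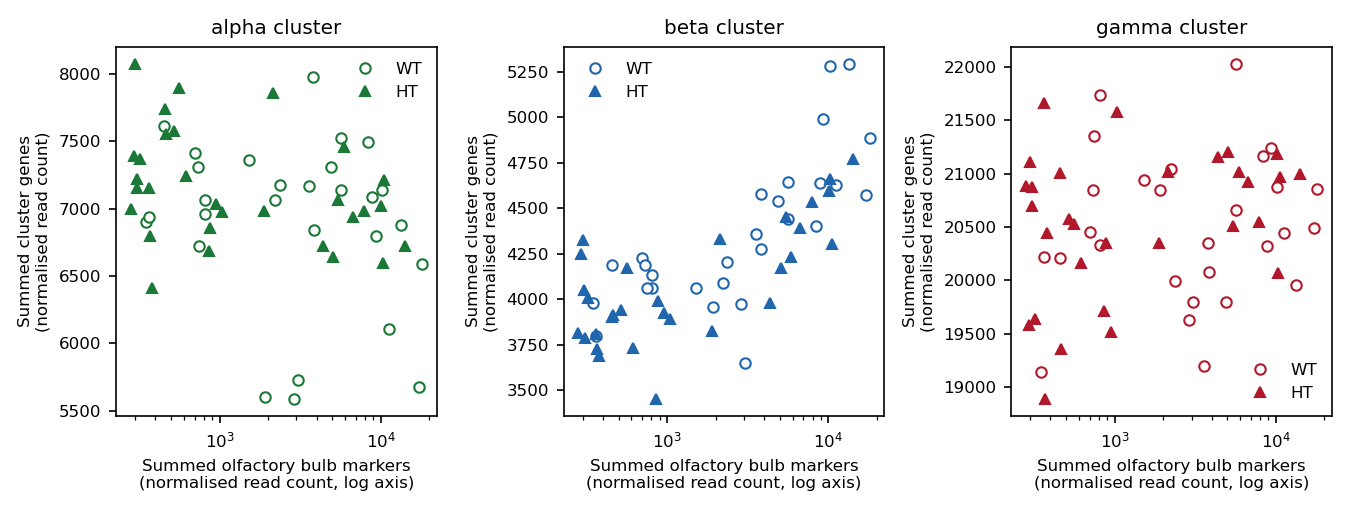
Summed normalised reads of the alpha, beta and gamma genes in each of 58 libraries against the summed olfactory bulb markers (log axis); open circles are WT and filled triangles HT. Beta sums climb from 3449.6 to 5295.5 across the range of bulb markers, and the highest beta sums are in WT libraries with bulb sums over 5000, while no such climb is seen in the alpha and gamma sums.

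The highest beta sums came from WT lithium female 3 (5295.5, olfactory bulb sum 13400), WT lithium male 4 (5283.5 and 10198.5), WT vehicle female 2 (4991.3 and 9313.6) and WT vehicle male 2 (4889.1 and 18098.7). Leaving out WT lithium male 4 ended the genotype call of Pcdhb9 (limma adjusted p = 0.0529), and in each of the other 57 cases of 1 library left out it held. Most of the gamma sum comes from the 3 gamma C types, with means of 5957.7 for Pcdhgc5, 3680.4 for Pcdhgc4 and 3402.9 for Pcdhgc3, so it says little of the A and B genes. Markers of immature neurons and proliferation gave a like pattern, with a median r of 0.379 for beta and 0.304 for gamma A and B genes. Microglial markers gave the reverse, with a median r of -0.463 for beta genes, 18 of 21 passing, and -0.415 for gamma A and B genes, 10 of 18 passing. Over all 16606 genes the median r with microglial markers was 0.001, with 8317 above 0.

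Among the C types, the relations with marker lists differed from those of the beta genes. Pcdhgc3 went with astrocyte markers (r = 0.715, rho = 0.663, permutation p of 1e-05 each, adjusted p of 0.000331 and 0.000485, r = 0.661 without the 2 farthest libraries). Pcdhac2 went with cortical excitatory neuron markers (r = 0.721, rho = 0.665, the same p values, r = 0.687) and against astrocyte markers (r = -0.639, rho = -0.597, permutation p of 1e-05 and 3e-05, adjusted p of 0.000331 and 0.000874, r = -0.601). Pcdhgc5 shared both directions, more weakly, with r = 0.41 for excitatory neurons and -0.579 for astrocytes (rho = 0.48 and -0.542, permutation p of 0.00458 and 2e-05 for r and 0.00057 and 0.00015 for rho, adjusted p of 0.0202 and 0.000502 for r and 0.00467 and 0.00227 for rho, r = 0.4 and -0.563). Pcdhac1 had the same signs, with r = 0.469 for excitatory neurons and -0.488 for astrocytes (rho = 0.408 and -0.478, permutation p of 0.00326 and 0.00047 for r and 0.00586 and 0.00104 for rho, adjusted p of 0.0161 and 0.00398 for r and 0.0252 and 0.00735 for rho, r = 0.398 and -0.5).

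Pcdhgc4 went with microglial markers (r = 0.7, rho = 0.687, permutation p of 1e-05 each, adjusted p of 0.000331 and 0.000485, r = 0.705 without the 2 farthest libraries) and against olfactory bulb markers (r = -0.42, rho = -0.422, permutation p of 0.00306 and 0.00313, adjusted p of 0.0156 and 0.0166, r = -0.4). A relation of this kind across bulk libraries does not say in which cells a gene is expressed. Astrocyte sums ran from 120040 to 152913 with a median of 137719 in HT and from 119032 to 163421 with a median of 128905 in WT. Microglial sums ran from 6174 to 8771 with a median of 7541 in HT and from 6106 to 8880 with a median of 7005 in WT. Both medians were higher in HT under vehicle, fluoxetine and lithium, while the ranges overlapped. With astrocyte markers as a covariate, Pcdhac2 was called higher in HT over the 3 treatments (0.12, limma adjusted p = 0.0197) and under fluoxetine (0.21, limma adjusted p = 0.0187). Without that covariate neither passed (0.085, limma adjusted p = 0.31, and 0.19, limma adjusted p = 0.126). Excitatory neuron markers, which were also higher in HT and with which Pcdhac2 went, were not fitted as a covariate. Their part was not tested, and the share of all genes called with the astrocyte covariate is not given here.

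**Figure D5:**
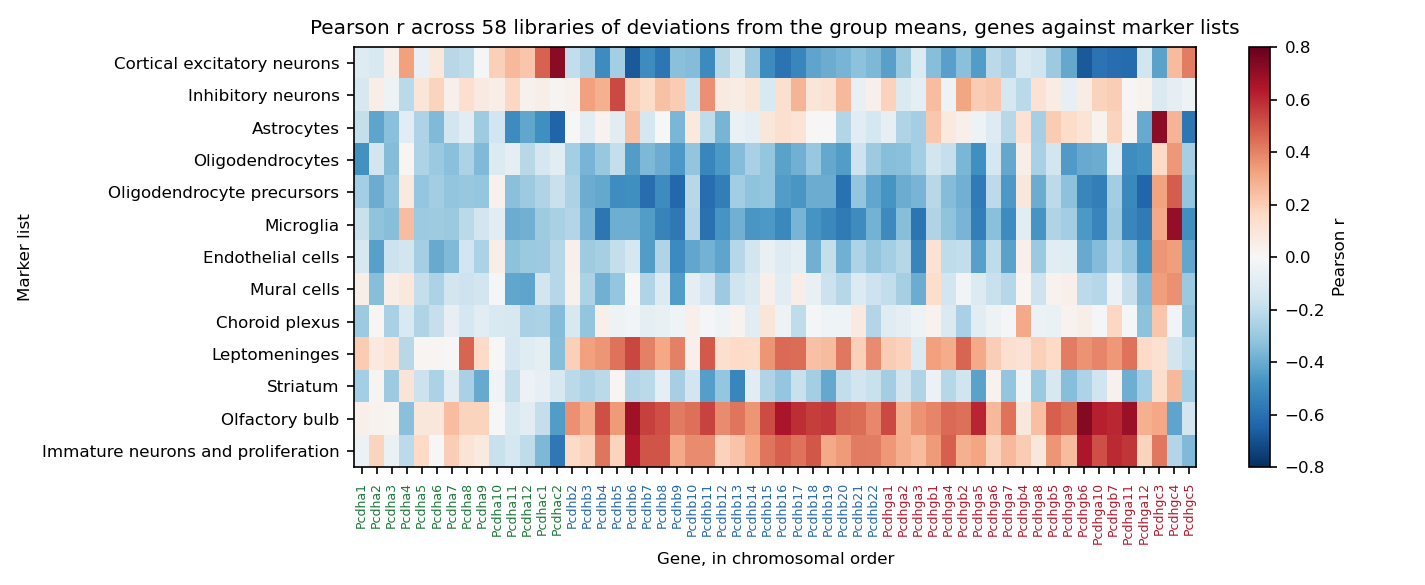
Pearson r across 58 libraries between each gene (columns, in chromosomal order) and each of 13 marker lists (rows), both as deviations from group means; red is positive and blue negative. The beta and gamma A and B columns are red for olfactory bulb and blue for microglia, while Pcdhac2, Pcdhgc3, Pcdhgc4 and Pcdhgc5 differ, with r of 0.715 for Pcdhgc3 and astrocytes and 0.7 for Pcdhgc4 and microglia.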

How the data were processed

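Per the labels' protocols, library preparation used a stranded poly(A) kit (TruSeq Stranded mRNA). The deposited table holds a linear signal per gene, in which the authors scaled each library's reads by its own size factor. The submitters' processing notes name Salmon 0.11.2, R 3.6.0, DESeq2 1.19.11 and the genome build GRCm38. Dividing a library by the worth of 1 read gave whole numbers within 0.0001 for 100% of its values, and these were used as reads. Size factors ran from 0.7872 to 1.2293. GENCODE M21 named 18077 of 18088 gene IDs, 15253 of them protein-coding. It gives the symbol Pcdha11 to 2 IDs, and ENSMUSG00000007440 is called Pcdha10 here after its RefSeq transcript. Lengths, GC content and shared bases come from the same annotation.

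Groups came from the sample titles. The main test was limma 3.58.1 (R 4.3.3) with trended variance, fitted to log2(value + 1) of 16606 genes with a mean of at least 10, as 12 group means over 58 libraries (46 residual degrees of freedom), and it was tested on simulated data. Each effect is the mean of the female and male difference with equal weight, and folds on this scale understate changes of low genes. The members, the lists and the effects were chosen with earlier results of these data known. The rule for names took every called member, the 5 C types, the 3 highest and the lowest of each cluster per kilobase, and the smallest p of each cluster in each effect. Further members were named after their values were seen. Alternatives were other pseudocounts, filters, scalings, weights, samples, covariates, a replicate block, GC and length correction, edgeR 4.0.16 on 17757 genes and DESeq2 1.42.0 on the recovered reads, and each library left out. Removing libraries rich in choroid plexus or olfactory bulb markers was added after the data were seen. Sequences are not reported here.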

Additional observations from a re-analysis of the deposited data

Results flagged for a closer look

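In 120 groups of 4 or 5 libraries (10 measures in 12 groups), the highest or lowest library was checked for a gap to the nearest other library that took up most of the group's range. Chance gives such a gap in about 1 of 20 groups, and 8 were found. For Pcdhgc3 they were HT fluoxetine female 4 with 2507.3 normalised reads (nearest 3192.2), HT lithium female 3 with 3484.8 (nearest 3258.8) and WT fluoxetine female 1 with 4189.3 (nearest 3272.8). HT fluoxetine female 4 also stood apart for Pcdhgc4, at 6665 with the nearest at 4221.5, so in this 1 library Pcdhgc3 was low and Pcdhgc4 high. The 2 genes share constant exons, and both values depend in part on how shared reads were assigned. WT fluoxetine female 1 had the highest astrocyte sum of all 58 libraries, at 163421.3.

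For Pcdhac1, HT lithium female 5 had 334.1 (nearest 278.2). The beta sum was 4772.3 in HT lithium male 2, with the nearest at 3979.9. Both called genes had 1 such library. Pcdhb9 was at 305.7 in WT lithium female 4 (nearest 342), which lies toward the HT values, and Pcdhga12 was at 908.2 in HT vehicle male 3 (nearest 774.3), one of the 4 libraries whose removal ended the lithium call in HT.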

How the results depend on the processing

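Under the alternatives run, no called result reversed its direction. The count of members called changed under some settings, and the cause was not tested. For lithium in HT it was 0 with only the groups of the comparison, in females alone, in males alone, with the choroid plexus covariate and without the libraries rich in olfactory bulb markers, and it ran from 0 to 1 with 1 library left out. For genotype over the 3 treatments it was 2 with array weights (Pcdhb7 and Pcdhb9) and with the astrocyte covariate (Pcdhb9 and Pcdhac2), 0 in each sex alone, with the olfactory bulb covariate and without the bulb-rich libraries, and 0 to 1 with 1 library left out. For lithium over both genotypes it was 0 in each sex alone and without the bulb-rich libraries, where Pcdhga12 had an adjusted p of 0.0519 (limma), and 2 with the olfactory bulb covariate (with Pcdhgb2) and DESeq2 (with Pcdha10). For fluoxetine over both genotypes it was 1, Pcdhga8, with the olfactory bulb covariate and DESeq2, and 0 to 1 with HT vehicle female 4 or WT vehicle male 1 left out. Over both genotypes DESeq2 called 696 of all genes for lithium and 612 for fluoxetine, where limma called 443 and 423. The shares of all genes called with covariates or weights are not given here. For genotype under fluoxetine it was 1 (Pcdhac2) with the astrocyte covariate, and 0 to 1 with WT fluoxetine female 2 (Pcdha5) or WT fluoxetine male 1 (Pcdhac2) left out. For female against male it was 1 (Pcdhb14, 0.15) with the GC and length trend removed, with or without the replicate block.

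The replicate numbers showed no clear pairing of the libraries. Over 66 pairs with the same number, the correlation of deviations ran from -0.488 to 0.389 with a median of -0.026, and 14 were above 0.1. The numbers are those of the sample titles, and the names of WT lithium male libraries 3 and 4 carry the numbers 4 and 5, which would pair them otherwise. With the replicate number as a block, the adjusted p (limma) was 0.0301 for Pcdhga12 under lithium in HT and 0.0318 for Pcdhb9, and the counts of members called were 1 and 1, as without the block. The median of the beta genes for genotype over the 3 treatments ran from -0.122 to -0.05 over 21 alternatives. Each sex alone has 29 libraries, and thinly counted members such as Pcdha8 and Pcdhb2 are limited by depth.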
